A study of Arabidopsis thaliana with 12 samples.

Results

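COR15A (AT2G42540), COR15B (AT2G42530) and COR47 (AT1G20440) of Arabidopsis thaliana were followed across 2 genotypes and 2 times. They were taken by symbol from the annotation of the array, where each is measured by 1 probe set that lists no other gene, and they are 3 of 13286 genes with such a probe set. The 4 groups were seedlings with the xrn3-8 allele 60 min after 150 mg/l cordycepin, xrn3-8 seedlings before it (0 min), wild-type Col-0 seedlings 60 min after 150 mg/l cordycepin, and Col-0 seedlings before it. All were whole seedlings of 14 days, grown on MS plates in long days, with 3 biological replicates and 1 array each. No mock-treated group at 60 min was analysed here, so cordycepin cannot be told apart from elapsed time and handling. Of the probe sets named here 0 list XRN3, so the genotype was not checked by the level of XRN3 itself.

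All 3 genes are named for their induction by cold. In the cold, CBF transcription factors bind an element in the promoters of such genes and raise their transcription, and abscisic acid and drought act on many of them too. COR15A and COR15B encode closely related, very hydrophilic proteins that are imported into the chloroplast stroma and protect membranes during freezing and water loss. COR47 encodes a dehydrin, an acidic hydrophilic protein of the cytosol that accumulates under the same stresses. XRN3, an exoribonuclease of the nucleus, digests the uncapped RNA that trails the polymerase once a transcript is cut at its end, a step in ending transcription. Cordycepin is an adenosine analogue that stops RNA chains from growing, so that the transcripts that remain should mostly be those made earlier.

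The deposited values are log2 signals, so a difference of 1 is a doubling. Within a group, signals of all 22746 tested probe sets correlated at r = 0.995 to 0.998 between arrays. Array medians ran from 4.63 to 4.69 in xrn3-8 after cordycepin, 4.80 to 4.81 in xrn3-8 before it, 4.68 to 4.69 in Col-0 after it and 4.86 to 4.87 in Col-0 before it. A gene looked up is called measured here if a single-gene probe set is named for it, and 8730 probe sets are unnamed. Of the tissue markers looked up, 3 of 12 green tissue genes were measured, namely LHCB4.2, LHCB4.1 and RCA. Their mean log2 signal per array was 12.2 to 12.3 in xrn3-8 after, 12.5 in xrn3-8 before, 11.9 to 12 in Col-0 after and 12.3 to 12.4 in Col-0 before cordycepin. Of the 3, only LHCB4.2 was called over time, at -0.67 in xrn3-8 and -1.27 in Col-0. RCA changed by 0.01 in xrn3-8 and -0.017 in Col-0, and LHCB4.1 by -0.02 in xrn3-8 and 0.057 in Col-0. The 1 measured root gene of 12, EXPA7, stood near background at 3.12 to 3.80. It was higher in Col-0 after cordycepin, with means of 3.62 after and 3.15 before it (0.47 ± 0.11 SE, adjusted p = 0.00183). Under the other scalings the difference was 0.10 to 0.44, and only quantile normalization kept the call. EXPA7 thus moved to the same side as COR15A and COR15B in Col-0, and its part in those changes was not tested. Seed markers (0 of 7 measured) were not analysed here. In whole seedlings, a change in the share of expressing cells and a change of RNA per cell cannot be told apart.

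COR15A had log2 signals of 8.91, 8.81 and 8.88 in xrn3-8 after cordycepin and 8.17, 8.76 and 8.39 in xrn3-8 before it. In Col-0 it had 9.72, 9.60 and 9.35 after cordycepin and 8.19, 8.77 and 8.58 before it. Col-0 after cordycepin was the highest group, xrn3-8 after cordycepin came next, and the groups before cordycepin overlapped each other at the bottom. COR15A was the least even of the 3 genes, with a pooled SD within groups of 0.232, which 2.53% of probe sets exceeded (the median SD was 0.119).

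For COR15B the values were 8.70, 8.71 and 8.73 in xrn3-8 after cordycepin and 8.31, 8.52 and 8.33 in xrn3-8 before it. Col-0 gave 8.42, 8.41 and 8.00 after cordycepin, and 7.50, 7.74 and 7.32 before it. Here xrn3-8 after cordycepin was the highest group and Col-0 before cordycepin the lowest, each apart from the rest. The middle groups, xrn3-8 before and Col-0 after cordycepin, overlapped. The pooled SD was 0.170, exceeded by 15.6% of probe sets.

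COR47 stood near the top of the scale in every sample. Its values were 12.74, 12.69 and 12.71 in xrn3-8 after cordycepin and 12.30, 12.30 and 12.38 in xrn3-8 before it. In Col-0 they were 12.90, 13.01 and 13.06 after cordycepin and 12.71, 12.64 and 12.73 before it. Col-0 after cordycepin was highest and xrn3-8 before it lowest, while xrn3-8 after and Col-0 before cordycepin overlapped. Only 1 to 6 probe sets were brighter on the Col-0 arrays after cordycepin, against 12 to 17 on those before it, and the highest value of any probe set was 13.22. The pooled SD was 0.0541, which 97.3% of probe sets exceeded.

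**Figure D1:**
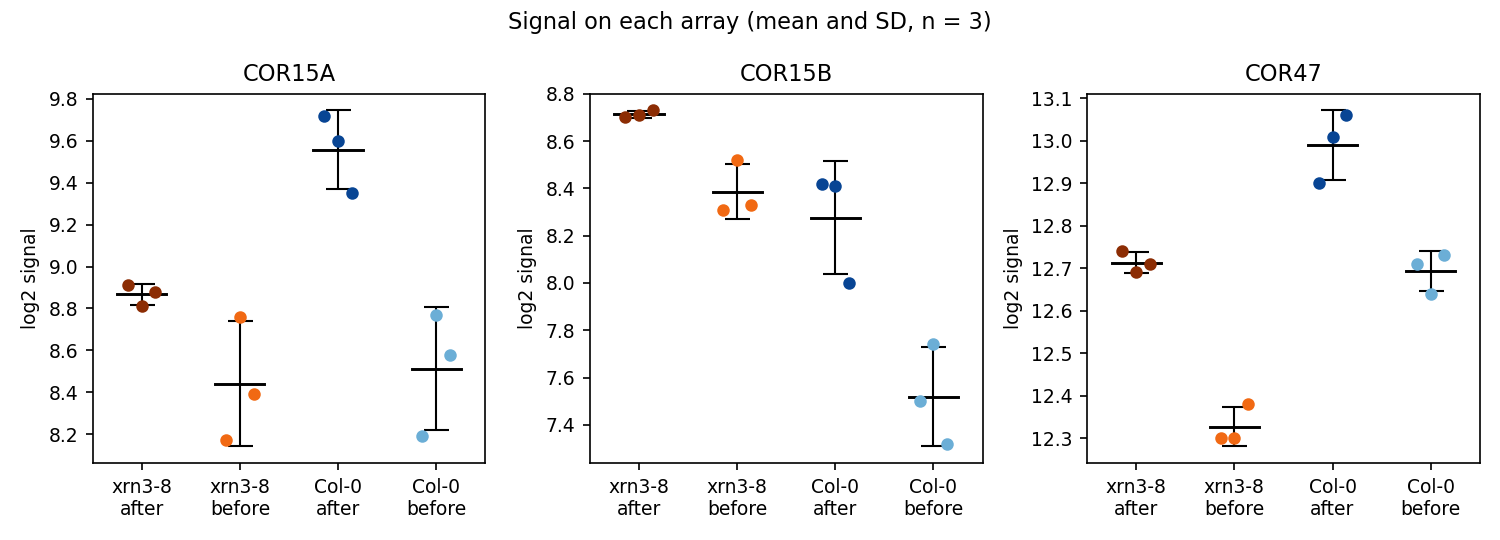
Log2 signal of COR15A, COR15B and COR47 on each array (points), with the mean and SD (n = 3) of xrn3-8 after, xrn3-8 before, Col-0 after and Col-0 before cordycepin. COR15A is highest in Col-0 after cordycepin (9.35 to 9.72), COR15B is lowest in Col-0 before it (7.32 to 7.74), and COR47 is lowest in xrn3-8 before it (12.30 to 12.38); the vertical axes differ and do not start at 0.

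Before cordycepin, the comparison of genotypes shows which steady-state levels differ in xrn3-8. COR15B was 1.82-fold higher in xrn3-8, with a mean log2 signal of 8.39 ± 0.12 in xrn3-8 and 7.52 ± 0.21 in Col-0 (SD, n = 3 each). The log2 difference was 0.87 ± 0.12 (SE), with an adjusted p of 3.39e-05, and 98.3% of probe sets had a lower value. COR47 was lower, with 12.33 ± 0.05 in xrn3-8 and 12.69 ± 0.05 in Col-0 (log2 difference -0.37 ± 0.07, adjusted p = 0.00109). COR15A did not pass the test, at 8.44 ± 0.30 in xrn3-8 and 8.51 ± 0.30 in Col-0. Its difference of -0.073 had a 95% interval of -0.39 to 0.24.

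Of the 3 genes, then, 1 was higher, 1 was lower and 1 did not pass, against a background of 31.9% of probe sets past the test (14.3% up and 17.6% down). The groups did not overlap for COR15B and COR47, as for 44.1% of all probe sets. A difference the size of that of COR15B or larger was found for 3.74% of probe sets, and one the size of that of COR47 or larger for 21.5%. The direction and call of all 3 were kept under every other scaling and fit tried and with any array left out, except that COR15A, never called, turned to 0.062 at the upper end of the leave-one-out values.

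After cordycepin, the genotypes were compared by the signal at 60 min. Whether synthesis of these transcripts had stopped by then was not tested. COR15A was lower in xrn3-8, with 8.87 ± 0.05 in xrn3-8 and 9.56 ± 0.19 in Col-0 (SD, n = 3 each), a log2 difference of -0.69 ± 0.15 (SE) or 0.620-fold, and an adjusted p of 0.00186. Only 3.73% of probe sets had a lower value. COR15B was still higher in xrn3-8, at 8.71 ± 0.02 in xrn3-8 and 8.28 ± 0.24 in Col-0 (log2 difference 0.44 ± 0.12, adjusted p = 0.00938). COR47 was still lower, at 12.71 ± 0.03 in xrn3-8 and 12.99 ± 0.08 in Col-0 (-0.28 ± 0.07, adjusted p = 0.00838). All 3 genes passed, against 32.2% of probe sets (16.6% higher and 15.6% lower), and for all 3 the groups did not overlap, as for 40.3% of probe sets. The call on COR15B was lost with the arrays centred on the Bacillus subtilis controls (0.31, adjusted p = 0.0768) or the hybridization controls (0.38, adjusted p = 0.152), and without Col-0 replicate 3 after cordycepin (0.30, adjusted p = 0.0589). That of COR47 was lost with centring on the hybridization controls (-0.33, adjusted p = 0.239).

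**Figure D2:**
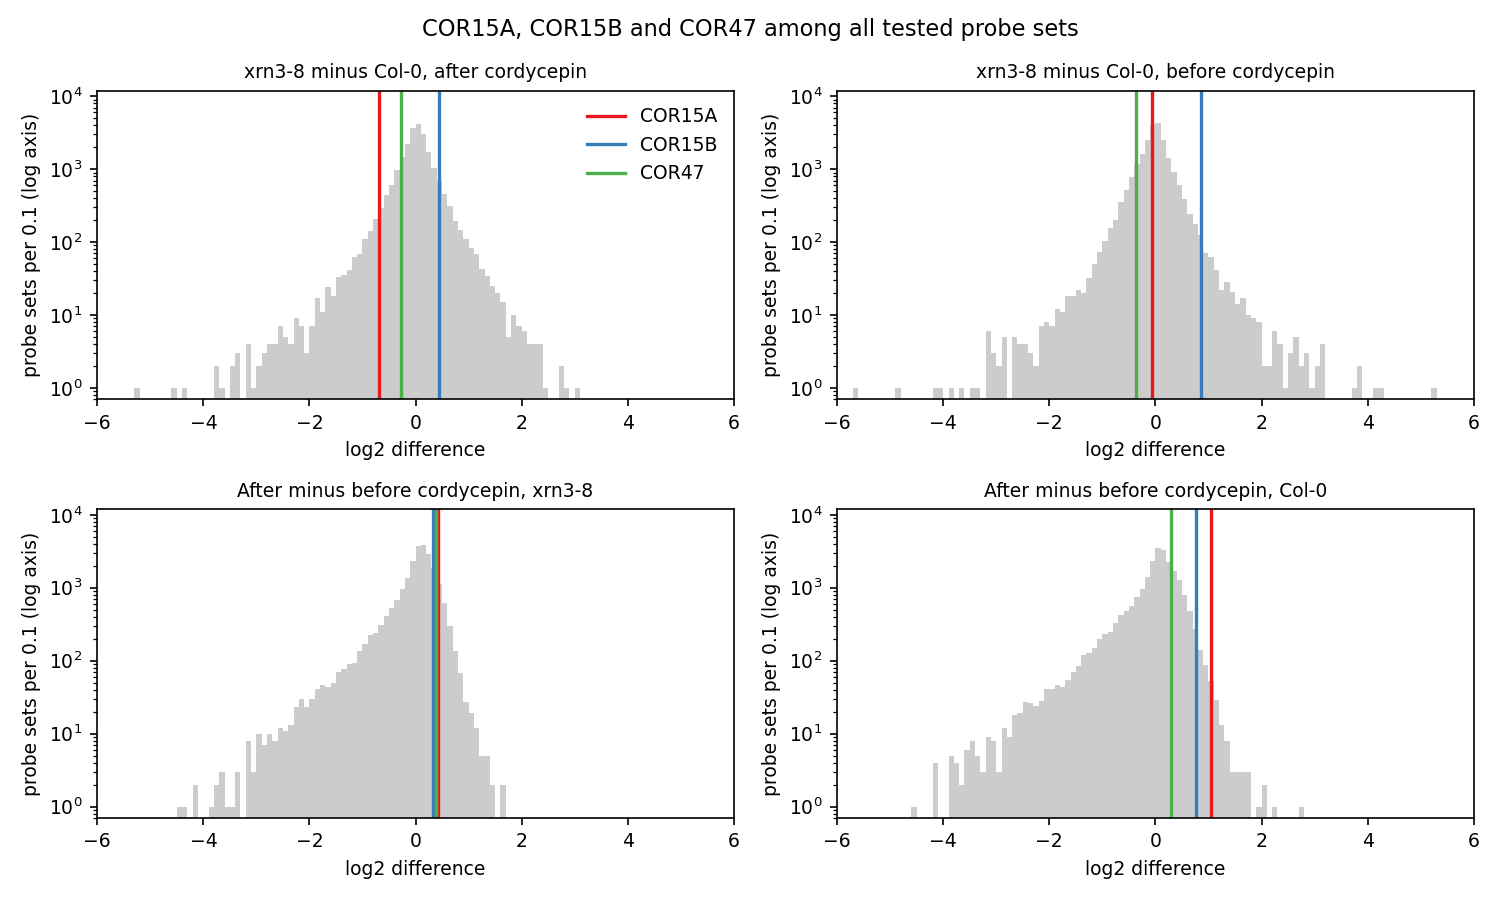
Histograms of the log2 difference of all 22746 tested probe sets in 4 comparisons (counts per 0.1 on a log axis), with vertical lines at COR15A, COR15B and COR47. COR15B lies in the upper tail of xrn3-8 minus Col-0 before cordycepin (0.87), COR15A in the lower tail after it (-0.69), and COR15A and COR15B in the upper tail of the change in Col-0 (1.04 and 0.76).

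With the scaling as deposited, all 3 transcripts were higher after 60 min of cordycepin in both genotypes, against a median probe set that moved little. Of 9 housekeeping genes looked at beside them, 6 were called higher and 1 lower in each genotype. The median change of these 9 was 0.233 in xrn3-8 and 0.327 in Col-0. In xrn3-8, COR15A was higher after cordycepin, at 8.87 ± 0.05 after and 8.44 ± 0.30 before it (SD, n = 3 each), with a log2 difference of 0.43 ± 0.15 (SE) and an adjusted p of 0.032. COR15B was higher as well, at 8.71 ± 0.02 after and 8.39 ± 0.12 before (0.33 ± 0.12, adjusted p = 0.038). COR47 had 12.71 ± 0.03 after and 12.33 ± 0.05 before (0.39 ± 0.07, adjusted p = 0.00059). Lower values in xrn3-8 were found for 91.3% of probe sets (COR15A), 84% (COR15B) and 88.9% (COR47). These rises in xrn3-8 are tied to the scaling as deposited: with the arrays centred on the Bacillus subtilis controls they turned to -0.08 for COR15A, -0.18 for COR15B and -0.12 for COR47, and none passed with centring on the hybridization controls or on housekeeping genes. The calls on COR15A and COR15B were also lost with quantile normalization (0.38 and 0.27), without xrn3-8 replicate 1 or 3 before cordycepin, and without xrn3-8 replicate 1 or 3 after it (for COR15B also replicate 2), with values of 0.29 to 0.59 for COR15A and 0.29 to 0.39 for COR15B over all arrays left out in turn. In this comparison 40.4% of probe sets were called, 24.5% higher and 15.9% lower, and for 49.2% the groups did not overlap, as for all 3 genes.

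In Col-0 the estimated rises of COR15A and COR15B were larger than in xrn3-8, but the interaction test called neither gene (adjusted p = 0.0895 and 0.14). Their rises in Col-0 held under every scaling tried. COR15A was 2.06-fold higher, with a mean of 9.56 ± 0.19 after cordycepin and 8.51 ± 0.30 before it (log2 difference 1.04 ± 0.15, adjusted p = 2.65e-05), and 99.5% of probe sets had a lower value. COR15B was 1.69-fold higher, with 8.28 ± 0.24 after and 7.52 ± 0.21 before (0.76 ± 0.12, adjusted p = 6.62e-05). Across the 4 other scalings the difference was 0.68 to 1.02 for COR15A and 0.39 to 0.75 for COR15B. COR47 had 12.99 ± 0.08 after and 12.69 ± 0.05 before (0.30 ± 0.07, adjusted p = 0.00346), but this rise turned to -0.067 with the Bacillus subtilis controls, -0.0083 with the hybridization controls and -0.03 with housekeeping genes. As deposited, 78.3% of probe sets had a lower value than COR47 in Col-0, and 40.2% had a larger change in size. The background here was 46.3% past the test (26.3% up and 20.1% down), and the groups did not overlap for 53.7%, as for all 3 genes.

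Which side of 0 a small change over time falls on depends on the scaling for the array as a whole. The median change of all probe sets was 0.093 in xrn3-8 and 0.073 in Col-0 as deposited, against -0.41 and -0.29 with the Bacillus subtilis controls. Rises made up 60.7% of the calls in xrn3-8 and 56.7% of those in Col-0 as deposited, against 0.986% and 6.59% with those controls. With hybridization controls the shares were 5.57% in xrn3-8 and 7.38% in Col-0, and with 9 housekeeping genes 20.1% and 8.87%. Between genotypes the share as deposited was 51.5% after and 44.8% before cordycepin. It ran from 29.0% to 50.4% after and from 11.9% to 50.2% before cordycepin under the other scalings.

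**Figure D3:**
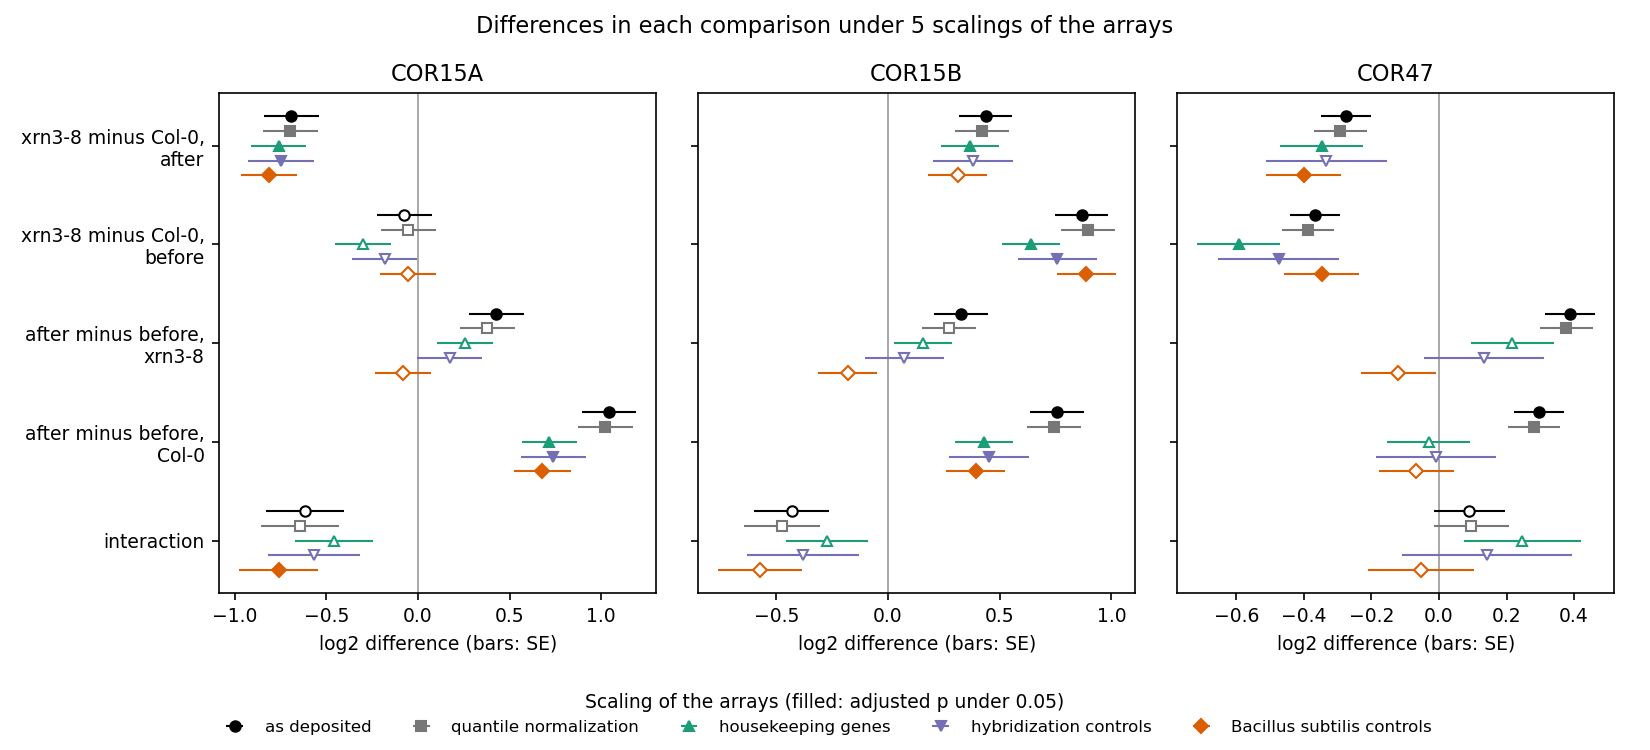
Log2 differences of COR15A, COR15B and COR47 (bars: SE) in 5 comparisons, each with the arrays scaled as deposited, by quantile normalization and by centring on housekeeping genes, hybridization controls or Bacillus subtilis controls; filled symbols have an adjusted p under 0.05. COR15B in xrn3-8 minus Col-0 before cordycepin, COR15A in xrn3-8 minus Col-0 after it, and both genes in the change in Col-0 stay on 1 side of 0 and filled, while the changes in xrn3-8 and that of COR47 in Col-0 cross 0.

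Whether the response over time itself differed between genotypes was tested as an interaction term, positive where xrn3-8 gained more or lost less. It was called for 8.05% of probe sets (5.08% positive and 2.97% negative) and for 0 of the 3 genes. COR15A gained 0.43 in xrn3-8 and 1.04 in Col-0, an interaction of -0.62 ± 0.21 (SE) with a 95% interval of -1.07 to -0.17 and an adjusted p of 0.0895. That of COR15B was -0.43 ± 0.17 (interval -0.79 to -0.073, adjusted p = 0.14), and that of COR47 was 0.09 ± 0.11 (interval -0.13 to 0.31, adjusted p = 0.697). The COR15A value passed with a trended prior variance (adjusted p = 0.0253) or with centring on the Bacillus subtilis controls (-0.76, adjusted p = 0.0371), and it passed narrowly without xrn3-8 replicate 1 before cordycepin (-0.75, adjusted p = 0.0468) or without Col-0 replicate 2 before it (-0.745, adjusted p = 0.0491). COR15B passed without Col-0 replicate 3 after cordycepin (-0.57, adjusted p = 0.0349).

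COR15A and COR15B lie next to each other on chromosome 2 in the RefSeq annotation (TAIR10.1), yet their differences between genotypes ran apart. Because both are read on the same array, the value of COR15B minus that of COR15A does not change when an array is recentred. This quantity was higher in xrn3-8 than in Col-0 by 1.13 ± 0.15 after cordycepin and by 0.94 ± 0.15 before it (SE from a linear model of this value alone, 8 residual degrees of freedom). On single arrays it was -0.21 to -0.10 in xrn3-8 after cordycepin and -0.24 to 0.14 in xrn3-8 before it, against -1.35 to -1.19 in Col-0 after and -1.26 to -0.69 in Col-0 before it. The genotypes thus did not overlap at either time, while after and before cordycepin overlapped within each genotype (differences of -0.10 ± 0.15 in xrn3-8 and -0.29 ± 0.15 in Col-0). Of single probe sets, the genotypes did not overlap for 40.3% after and 44.1% before cordycepin. The share among differences of 2 probe sets was not computed. Signals of different probe sets are not on a common scale, so only the shift between groups can be read, and no p is given because the pair was chosen with these results known. The paralogues are similar in sequence, and whether RNA of one binds the probes of the other was not tested.

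The genes beside the members were examined because XRN3 acts where transcripts end. AT1G20430, the gene before COR47 on chromosome 1, had log2 signals of 7.16, 7.09 and 7.01 in xrn3-8 before cordycepin and 6.29, 6.14 and 6.14 in Col-0 before it. It was thus higher in xrn3-8 by 0.90 ± 0.09 (SE, adjusted p = 8.73e-07) where COR47 was lower by 0.37. After cordycepin its values were 6.21, 6.48 and 6.37 in xrn3-8 and 6.34, 6.40 and 6.48 in Col-0, and the groups overlapped (difference -0.053 ± 0.09, interval -0.24 to 0.13). In xrn3-8 the signal of AT1G20430 fell by 0.73 ± 0.09 over the 60 min (adjusted p = 5.48e-06), while in Col-0 the change of 0.22 ± 0.09 did not pass (adjusted p = 0.0517), although its groups did not overlap and 6 alternatives called it, quantile normalization among them (0.305, adjusted p = 0.0107). The interaction was -0.95 ± 0.12 (adjusted p = 1.72e-04), and 0.536% of probe sets had a lower value. COR47 itself gained 0.39 in xrn3-8 over the same time as deposited.

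AT2G42520, the gene before COR15B, overlaps COR15B in the same annotation, whose table gives no strand. It had 7.29, 7.28 and 7.53 in xrn3-8 and 7.08, 7.18 and 7.06 in Col-0 after cordycepin, a difference of 0.26 ± 0.09 (SE, adjusted p = 0.0368) that 9 of the alternatives no longer called. Before cordycepin it had 7.08, 7.26 and 7.29 in xrn3-8 and 7.34, 7.48 and 7.49 in Col-0 (-0.23 ± 0.09, adjusted p = 0.0681). The groups before cordycepin did not overlap, as for 44.1% of all probe sets. There 5 alternatives called AT2G42520 lower in xrn3-8, array weights among them (-0.24, adjusted p = 0.0257). Unlike COR15B, AT2G42520 fell in Col-0 over the 60 min, by 0.33 ± 0.09 (adjusted p = 0.00664), and its interaction was 0.49 ± 0.13 (adjusted p = 0.027). AT2G42560, a late embryogenesis abundant (LEA) gene 2 places beyond COR15A, stayed near background at 2.99 to 3.73 on all arrays, where the lower quartile of mean signals was 3.05. In xrn3-8 it passed the test over time (0.33 ± 0.11, adjusted p = 0.0302), but its arrays overlapped, 7 alternatives lost the call and 1 turned the sign. It differed by 0.19 ± 0.11 between genotypes after cordycepin (adjusted p = 0.221) and by 0.083 ± 0.11 before it (adjusted p = 0.646). The genes between and beyond these, ERD10 next to COR47 among them, were not analysed here.

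**Figure D4:**
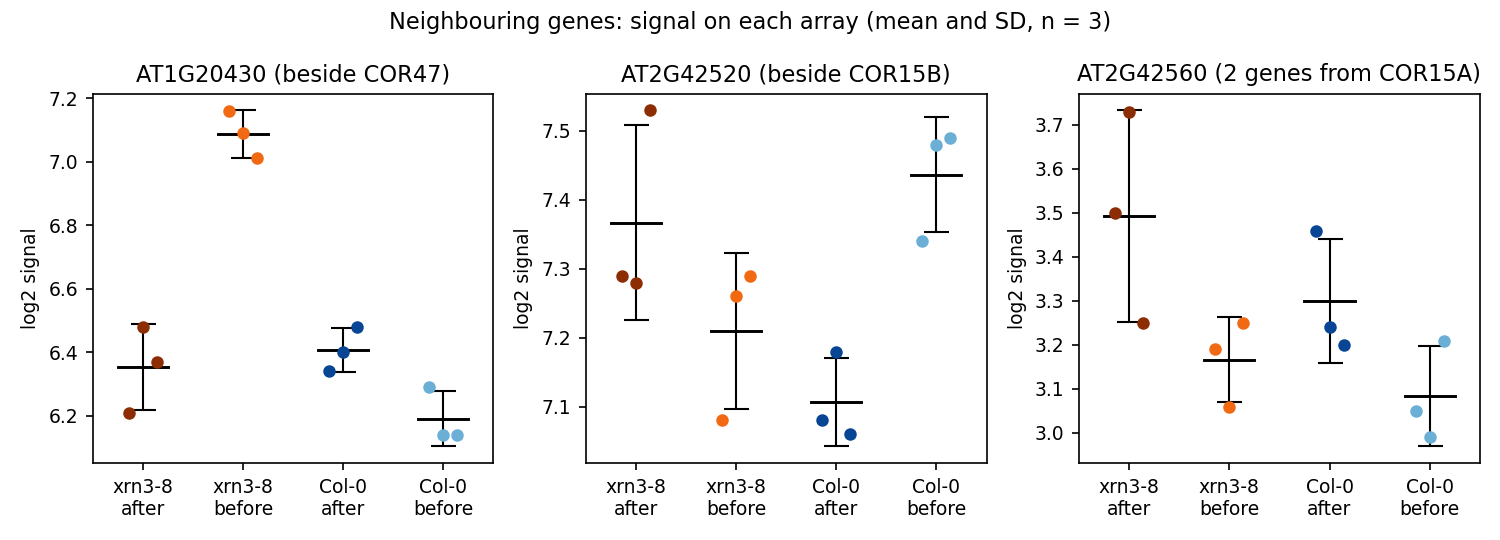
Log2 signal on each array (points), with mean and SD (n = 3), of AT1G20430 beside COR47, AT2G42520 beside COR15B and AT2G42560, 2 genes from COR15A, in xrn3-8 after, xrn3-8 before, Col-0 after and Col-0 before cordycepin. AT1G20430 is apart only in xrn3-8 before cordycepin (7.01 to 7.16); the vertical axes differ and do not start at 0.

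Of 29 regulators of the cold pathway looked up, 4 had a named single-gene probe set. The CBF genes were not among them, so their signal could not be looked up. All 4 were lower in xrn3-8 before cordycepin, with a median of -0.67 against -0.0067 for all probe sets (17.6% of all probe sets were lower). COR27, a cold-induced gene that acts on the circadian clock, was lower by most, with means of 5.84 in xrn3-8 and 6.88 in Col-0 (-1.04 ± 0.11 SE, adjusted p = 1.85e-06). AT4G33980 followed (-0.72 ± 0.09, adjusted p = 7e-06), and then STZ, a zinc finger repressor induced by cold and other stresses (-0.61 ± 0.08). SIZ1, a SUMO ligase that acts on the CBF activator ICE1, was lower by 0.23 ± 0.07 (adjusted p = 0.0195), but not with Bacillus subtilis (-0.21, adjusted p = 0.182) or hybridization control centring (-0.34, adjusted p = 0.207), nor without xrn3-8 replicate 1 or 2 or Col-0 replicate 2 before cordycepin. After cordycepin 3 of the 4 were lower in xrn3-8, against 15.6% of all probe sets: COR27 (-0.71 ± 0.11), STZ (-0.60 ± 0.08) and AT4G33980 (-0.49 ± 0.09), and SIZ1 did not pass (0.11 ± 0.07).

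Over time 3 of the 4 regulators fell in xrn3-8 and 4 in Col-0, against 15.9% of all probe sets in xrn3-8 and 20.1% in Col-0, where the 3 COR genes were higher as deposited. In xrn3-8, STZ fell by 2.55 ± 0.08, SIZ1 by 0.72 ± 0.07 and AT4G33980 by 0.26 ± 0.09, and COR27 did not pass (-0.16 ± 0.11, adjusted p = 0.266). The call on AT4G33980 in xrn3-8 was lost with quantile normalization (-0.15, adjusted p = 0.197) or a trended prior variance, and without xrn3-8 replicate 2 before or replicate 3 after cordycepin. In Col-0 all 4 were lower after cordycepin, STZ by 2.56 ± 0.08, SIZ1 by 1.06 ± 0.07, AT4G33980 by 0.50 ± 0.09 and COR27 by 0.49 ± 0.11. None of these changed sign under the other scalings. The interaction passed for SIZ1 (0.34 ± 0.10, adjusted p = 0.0451), a call lost under 15 of the alternatives, and for none of the other 3. Of 23 clock genes 2 were measured, and GI, a large clock protein, was lower in xrn3-8 by 0.28 ± 0.09 after and 0.59 ± 0.09 before cordycepin, with the call after cordycepin lost under 4 alternatives. The other, AT5G52660, did not pass between genotypes at either time. Of 47 genes of the abscisic acid and dehydration response, 0 had a named single-gene probe set, so their signal could not be looked up.

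Among 37 other cold-regulated genes looked up, 5 were measured. Before cordycepin 3 were lower in xrn3-8, 1 was higher and 1 did not pass, with a median of -0.30, against 17.6% lower and 14.3% higher over all probe sets. With hybridization control centring 1 was lower and 0 higher. LTI30, a dehydrin that binds membranes, was lower, with means of 10.46 in xrn3-8 and 11.08 in Col-0 (-0.62 ± 0.09, adjusted p = 5.86e-05). AT1G16850 (-0.31 ± 0.10) and the lipocalin gene TIL (-0.30 ± 0.08) were lower too, though neither passed with Bacillus subtilis or hybridization control centring, or without some of the arrays before cordycepin. SWEET17, a fructose transporter of the vacuole, was higher (0.47 ± 0.09, adjusted p = 9.34e-04), but did not pass with hybridization control (0.36, adjusted p = 0.166) or housekeeping centring (0.24, adjusted p = 0.0965). After cordycepin 4 were lower and 0 higher, with a median of -0.28, against 15.6% lower and 16.6% higher over all probe sets, and 2 were lower with hybridization control centring. They were AT1G20823 (-0.49 ± 0.09), AT1G16850 (-0.44 ± 0.10), SWEET17 (-0.28 ± 0.09) and LTI30 (-0.25 ± 0.09). After cordycepin the call on SWEET17 was lost under 6 alternatives, 4 of them with an array left out, and that on LTI30 under 10, 6 of them with an array left out.

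Over time, 2 of these 5 rose and 1 fell in xrn3-8, and 2 rose and 2 fell in Col-0. Over all probe sets 24.5% were higher and 15.9% lower in xrn3-8, and 26.3% higher and 20.1% lower in Col-0. With Bacillus subtilis centring 0 were higher and 3 lower in xrn3-8, where TIL, 0.33 ± 0.08 as deposited, turned to -0.18. AT1G16850 resembled the COR15 genes, higher after cordycepin by 0.71 ± 0.10 in xrn3-8 and by 0.84 ± 0.10 in Col-0, although in xrn3-8 it did not pass with Bacillus subtilis centring (0.21, adjusted p = 0.109). SWEET17 rose by 0.79 ± 0.09 in Col-0 and did not pass in xrn3-8 (0.037 ± 0.09), with an interaction of -0.75 ± 0.13 (adjusted p = 0.00218), which hybridization control centring no longer called (-0.70, adjusted p = 0.177). LTI30 fell by 0.39 ± 0.09 in Col-0, where COR47, another dehydrin, was higher as deposited, and it did not pass in xrn3-8 (-0.023 ± 0.09). AT1G20823 fell by 1.42 ± 0.09 in xrn3-8 and 0.83 ± 0.09 in Col-0.

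**Figure D5:**
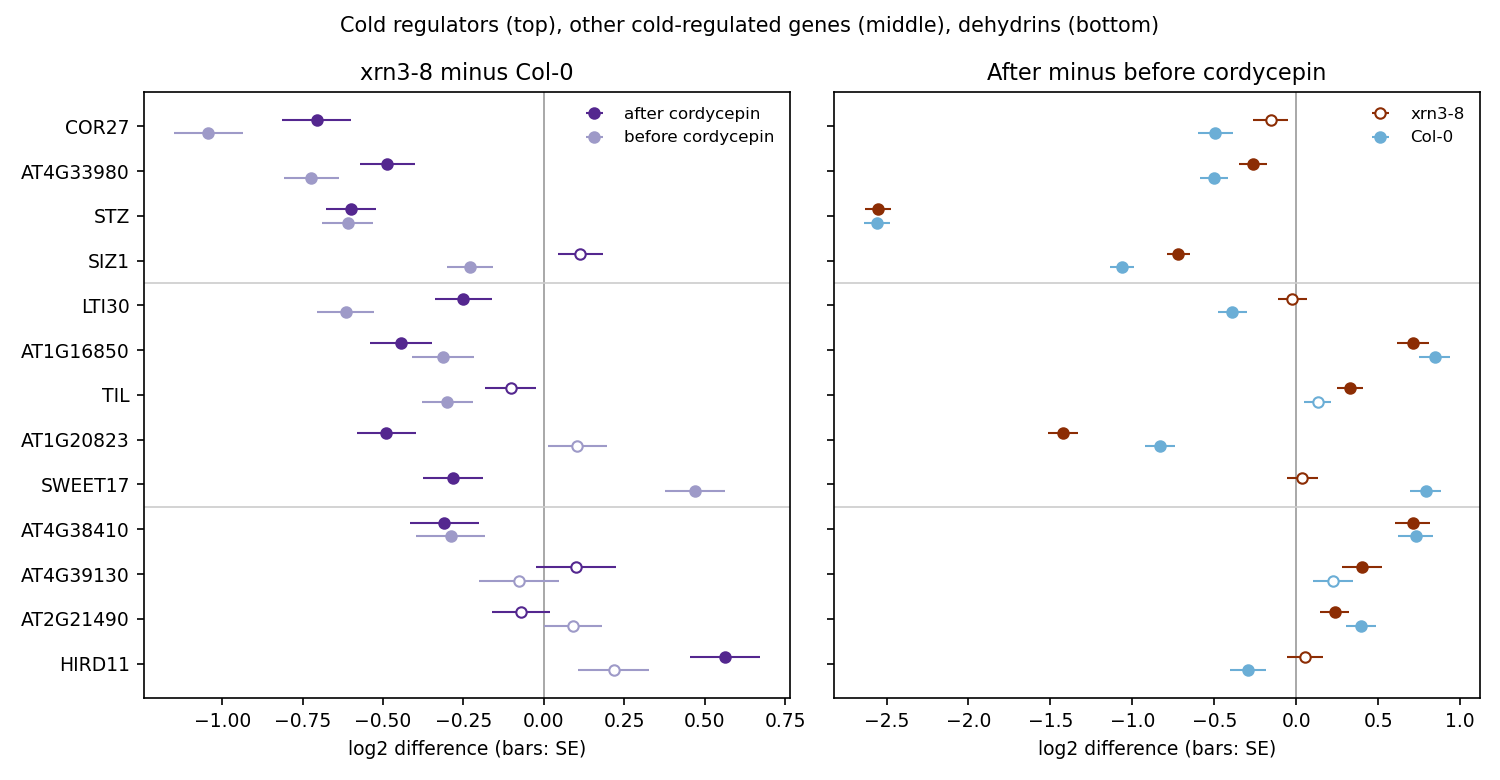
Log2 differences (bars: SE) of measured cold regulators, other cold-regulated genes and dehydrins, between genotypes after and before cordycepin (left panel) and over time in xrn3-8 and Col-0 (right panel); filled symbols have an adjusted p under 0.05. COR27, AT4G33980 and STZ lie below 0 in both genotype comparisons, and STZ falls by 2.55 in xrn3-8 and 2.56 in Col-0.

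COR47 belongs to the dehydrins, of which 5 of 9 others were measured. Before cordycepin 2 were lower in xrn3-8, LTI30 and AT4G38410 (-0.29 ± 0.11, adjusted p = 0.0479), and 3 did not pass, against 17.6% lower and 14.3% higher over all probe sets; the call on AT4G38410 was lost under 12 of the alternatives. After cordycepin these 2 were lower as well, AT4G38410 by 0.31 ± 0.11 (adjusted p = 0.0347, lost under 7 alternatives), while HIRD11, a small histidine-rich dehydrin, was higher, with means of 11.34 in xrn3-8 and 10.77 in Col-0 (0.56 ± 0.11, adjusted p = 8.08e-04). The median over the 5 was -0.07 after and -0.077 before cordycepin. Over time 3 of the 5 were higher and 0 lower in xrn3-8, and 2 were higher and 2 lower in Col-0. Among those higher in xrn3-8, AT2G21490 (means of 3.09 after and 2.85 before) and AT4G39130 (3.52 and 3.12) stood near background. So did AT2G21490 among those higher in Col-0 (3.16 after and 2.76 before). Over all probe sets 24.5% were higher and 15.9% lower in xrn3-8, and 26.3% higher and 20.1% lower in Col-0. With Bacillus subtilis centring 0 were higher and 3 lower in xrn3-8, and 1 was higher and 2 lower in Col-0. HIRD11 (-0.29, a call lost under 6 alternatives) and LTI30 (-0.39) fell in Col-0. AT4G38410 rose by 0.71 ± 0.11 in xrn3-8 and 0.73 ± 0.11 in Col-0. It stayed above 0 under the 4 other scalings, but at 0.20 in xrn3-8 with Bacillus subtilis centring it no longer passed (adjusted p = 0.119), and hybridization control centring lost the call in both genotypes.

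Of 37 other LEA genes, relatives in a broad sense of the COR15 proteins, 25 were measured, and 14 of these lay below the lower quartile of mean signal. Before cordycepin 3 were higher in xrn3-8, 2 were lower and 20 did not pass, and after it 3 were higher, 5 lower and 17 did not pass. Over all probe sets 31.9% were called before and 32.2% after cordycepin. With housekeeping centring 2 of the 25 were higher and 7 lower before cordycepin. AT3G02480 had the largest positive difference of the 25 at both times, with means of 6.17 in xrn3-8 and 4.36 in Col-0 after cordycepin (1.81 ± 0.20, adjusted p = 3.71e-06) and 6.47 in xrn3-8 and 3.48 in Col-0 before it (2.997 ± 0.20, adjusted p = 1.45e-08). AT2G23110 was higher by 1.27 ± 0.12 after and 0.59 ± 0.12 before cordycepin, and LEA4-5 by 0.66 ± 0.11 after and 0.54 ± 0.11 before it, where hybridization control (0.43) and housekeeping centring (0.31) lost the call. LEA27 (AT2G46140) was lower by 1.19 ± 0.10 after and 0.60 ± 0.10 before it.

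The median difference over the 25 was 0.0033 after and 0.017 before cordycepin, against 0.02 after and -0.0067 before it for all probe sets. Over time, as deposited, 4 rose and 0 fell in xrn3-8, and 9 rose and 1 fell in Col-0, against 24.5% higher and 15.9% lower of all probe sets in xrn3-8 and 26.3% higher and 20.1% lower in Col-0. LEA26 (AT2G44060) was among those higher, by 0.36 ± 0.09 in xrn3-8 and 0.63 ± 0.09 in Col-0, but it turned to -0.15 in xrn3-8 with Bacillus subtilis centring and lost the call in Col-0 with Bacillus subtilis or hybridization control centring. Centring on the Bacillus subtilis controls gave 0 higher and 18 lower in xrn3-8, and 2 higher and 6 lower in Col-0.

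The genes whose signals followed each member most closely over the 12 arrays were sought among 13285 others by Pearson's r. The 12 points share 4 groups, so r mostly follows the group means. COR15A was most like CYS1, which encodes a cystatin (r = 0.974), AT5G03030 (0.951) and AT5G53340 (0.949). COR15B was most like AT4G12600 (0.977), TO1, a thioredoxin of mitochondria (0.972), and AT2G42220 (0.970). COR47 was most like AT4G23470 (0.986), AT2G20320 (0.985) and AT5G35200 (0.982). No member was among the 3 closest to another, and the members correlated with each other at r = 0.321 (COR15A and COR15B), 0.747 (COR15A and COR47) and -0.119 (COR15B and COR47). The comparisons of genotypes share no arrays with each other, but each shares its arrays with the comparisons over time.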

How the data were processed

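Seedling RNA was hybridised as biotinylated cRNA to 12 Affymetrix 1-colour arrays, per the labels' protocols. The authors deposited log2 signals, 1 per probe set and array; affy 1.48.0 and limma 3.26.9 are named in the submitters' processing notes, and the normalization and summary methods are not given in the sources used here. Lower quartiles of the columns lie between 2.98 and 3.1, so changes can be read only against the bulk of probe sets on the same array.

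Genes were named from the platform annotation, with symbols updated by gene identifier from RefSeq (TAIR10.1); of 13513 single-gene probe sets 13436 matched, standing for 13286 genes, and 8730 probe sets are unnamed here. A gene with several probe sets was represented by the brightest. Group means were estimated in 1 linear model over all 12 arrays with limma 3.58.1 (R 4.3.3, lmFit and eBayes), on the 22746 non-control probe sets, 64 controls left out. Tests were two-sided, with Benjamini-Hochberg adjustment over all probe sets of a comparison and a call at an adjusted p under 0.05. No detection calls were used. The fit was tested on simulated data. The number of arrays limits the precision. The labels call the replicates biological.

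The members and gene lists were chosen with earlier results of these data known. Named genes are the 3 members, up to 4 measured genes of a list with the largest differences, measured neighbours, further list members added after their values were seen, and the 3 genes most correlated with each member. Alternatives were the replicate number as a block, fits of the compared groups alone, a trended prior variance, array weights, a filter of the dimmest 40%, 4 other scalings and leaving out each array.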

Additional observations from a re-analysis of the deposited data

Results flagged for a closer look

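For 2 genes beside a member and 7 genes of the lists looked up, the change over 60 min of cordycepin in xrn3-8 differed from that in Col-0 by the interaction test, while no member passed it. Over all probe sets 8.05% passed. By list, 1 of 4 cold regulators, 2 of 5 other cold-regulated genes and 1 of 3 green tissue genes passed. Of 25 other LEA genes 1 passed with a positive and 2 with a negative value. Among 5 dehydrins, 9 housekeeping genes, 2 clock genes and 1 root gene, 0 passed. Next to COR47, AT1G20430 had an interaction of -0.95 ± 0.12 (SE, adjusted p = 1.72e-04), which was called under every alternative tried. AT2G42520, which overlaps COR15B, had 0.49 ± 0.13 (adjusted p = 0.027), and the call was lost with the Bacillus subtilis controls (0.34), the hybridization controls (0.54) and without 6 of the arrays. SIZ1 had 0.34 ± 0.10 (adjusted p = 0.0451), lost under 15 alternatives, the replicate block among them (adjusted p = 0.0537). For SWEET17 it was -0.75 ± 0.13 (adjusted p = 0.00218), lost with hybridization control centring. AT1G20823 had -0.59 ± 0.13 (adjusted p = 0.00971), lost with housekeeping (-0.44) and hybridization control centring (-0.54). Of the LEA genes, AT3G02480 had -1.19 ± 0.29 (adjusted p = 0.0174), lost without xrn3-8 replicate 2 before cordycepin (-1.01, adjusted p = 0.052). AT2G23110 had 0.67 ± 0.17 (adjusted p = 0.0234), lost under 8 alternatives, and AT2G46140 had -0.59 ± 0.15 (adjusted p = 0.0206), lost under 6. The green tissue gene LHCB4.2 had 0.59 ± 0.13 (adjusted p = 0.0118), with changes over time of -0.67 in xrn3-8 and -1.27 in Col-0, and lost the call with Bacillus subtilis and hybridization control centring.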

How the results depend on the processing

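Of 132 values of the 3 members under other fits and scalings, 113 kept their direction and their side of the threshold, and of 180 with 1 array left out, 167 did. Bacillus subtilis centring turned the changes in xrn3-8 to -0.08 (COR15A), -0.18 (COR15B) and -0.12 (COR47) and that of COR47 in Col-0 to -0.067, and it left COR15B between genotypes after cordycepin at 0.31, no longer called, with the COR15A interaction called at -0.76. Hybridization control centring left COR15A (0.17), COR15B (0.073) and COR47 (0.13) uncalled in xrn3-8, COR15B (0.38) and COR47 (-0.33) uncalled between genotypes after cordycepin, and COR47 in Col-0 at -0.0083. Housekeeping centring left COR15A (0.26), COR15B (0.16) and COR47 (0.22) uncalled in xrn3-8 and COR47 in Col-0 at -0.03. Quantile normalization left COR15A (0.38) and COR15B (0.27) uncalled in xrn3-8, and a trended prior called the COR15A interaction (-0.62). With arrays left out, the ranges were 0.29 to 0.59 (COR15A in xrn3-8), 0.29 to 0.39 (COR15B in xrn3-8), 0.30 to 0.51 (COR15B between genotypes after cordycepin), -0.75 to -0.455 (COR15A interaction) and -0.57 to -0.33 (COR15B interaction). A trended prior or another scaling changes the variance or the offset by construction; beyond that the cause was not tested.

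Counts of called probe sets moved by over 1.5 times as follows. Hybridization control centring gave 3466 between genotypes after cordycepin (7322 as deposited), 3749 before it (7264), 4539 in xrn3-8 (9183), 6473 in Col-0 (10534) and 341 for the interaction (1830). Bacillus subtilis centring gave 16933 in xrn3-8 and 1093 for the interaction, and housekeeping centring 5967 in xrn3-8. The replicate number used as a block changed no call of the members: COR15B between genotypes before cordycepin stayed at 0.87 and the COR15A interaction at -0.62. The labels do not state whether the numbers pair the arrays, and pairing was not tested. Deviations from group means of same-numbered arrays correlated at -0.0856 to 0.176, above 0.1 in 4 of 18 pairs. The median was 0.0365 for arrays of the same number and -0.0241 for those of different numbers. For 89 further comparisons of neighbouring and list genes, settings added after seeing the data gave 1856 values, of which 1684 kept direction and side, 146 lost a call and 20 gained one. The 6 reversed values were all changes in xrn3-8 with Bacillus subtilis centring: AT2G42520 (-0.35), AT2G42560 (-0.18), SWEET17 (-0.47), AT2G23110 (-0.30), AT2G46140 (-0.29) and AT2G44060 (-0.15). Some comparisons named in the text were not among the 89. The change of TIL in xrn3-8, which turned to -0.18 with Bacillus subtilis centring, was left out in this way.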
